A study of Arabidopsis thaliana with 9 samples.

Results

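The profilin family of Arabidopsis thaliana was followed across stamens, gynoecium and leaf. Its members are the 5 loci PRF1 (AT2G19760), PRF2 (AT4G29350), PRF3 (AT5G56600), PRF4 (AT4G29340) and PRF5 (AT2G19770), taken by locus from the 32833 loci of the count table, and all 5 passed the filter that left 20827 loci to test. The RNA sequencing series holds 3 libraries from stamens, the pollen-bearing organs that form its male group, 3 from gynoecium, the ovule-bearing organ that forms its female group, and 3 from leaf. All plants were of the Col-0 accession, the common laboratory strain, with no mutation or treatment named, and all samples carry the same flower bud differentiation stage label. The floral organs are labelled as coming from immature buds. The series describes its subject as gametophytes, but each floral library is of a whole organ in which sporophytic cells and gametophytes are mixed.

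Profilins are small proteins that bind actin monomers and hand them to growing filaments, chiefly through formins, whose proline-rich stretches they also bind. Depending on their partners they can hold monomers in reserve or speed filament growth. In flowering plants the family falls into a vegetative class, here PRF1, PRF2 and PRF3, and a reproductive class, here PRF4 and PRF5, known from mature pollen, where actin filaments carry cargo to the tip of the pollen tube. Profilins of birch and grass pollen are also known as allergens.

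In the RefSeq annotation of the TAIR10.1 assembly, PRF1 lies on chromosome 2 at 8516658-8518194 and PRF5 on the same strand (minus) at 8519485-8521275, with 1290 bases and no annotated gene between them. PRF4 at 14447338-14448698 and PRF2 at 14449888-14451394 on chromosome 4 are neighbours in the same way, both on the plus strand and 1189 bases apart. Each of these neighbouring pairs joins a gene of the reproductive class to a gene of the vegetative class, and PRF3 lies alone on chromosome 5 at 22909882-22910710, on the minus strand. RefSeq notes that AT2G19770, here PRF5, was first named profilin 4, and lists AT4G29350, here PRF2, under the symbol PFN2.

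PRF3 has 2 annotated models, of which a model with 3 coding exons, as in the other members, was taken. In the models used, the coding sequence of every member is split over 3 exons. It is 396 bases long in PRF1, PRF2 and PRF3 and 405 bases in PRF4 and PRF5, and the difference lies in the first coding exon, of 123 or 132 bases. Coding identity was 83.0% between PRF4 and PRF5, 83.1% between PRF1 and PRF2, 77.0% between PRF1 and PRF3, 75.8% between PRF2 and PRF3, and 69.0% to 72.6% between the classes. The middle coding exon, 138 bases in every member and wholly coding, is shown for the reproductive-class gene PRF5 and the 3 vegetative-class genes because it lets them be compared letter by letter. Capitals mark the 25 positions at which PRF5 has a base that none of PRF1, PRF2 and PRF3 has. At 13 of these positions PRF1, PRF2 and PRF3 are identical to each other, and 73 positions are the same in all 4 genes shown.
PRF5: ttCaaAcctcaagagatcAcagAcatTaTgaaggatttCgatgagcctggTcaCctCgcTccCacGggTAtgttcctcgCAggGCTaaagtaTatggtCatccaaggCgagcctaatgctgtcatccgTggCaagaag
PRF1: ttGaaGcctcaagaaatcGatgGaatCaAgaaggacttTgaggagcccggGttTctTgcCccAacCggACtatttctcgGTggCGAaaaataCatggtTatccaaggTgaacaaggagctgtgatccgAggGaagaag
PRF2: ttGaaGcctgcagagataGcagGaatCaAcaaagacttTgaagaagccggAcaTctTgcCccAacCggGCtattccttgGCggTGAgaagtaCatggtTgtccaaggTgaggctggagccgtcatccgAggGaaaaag
PRF3: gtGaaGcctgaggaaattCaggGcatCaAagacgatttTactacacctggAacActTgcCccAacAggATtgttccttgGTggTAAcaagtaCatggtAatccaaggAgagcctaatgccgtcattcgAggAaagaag
The longest run shared exactly by any pair of transcripts was 32 bases. No member's transcript had a run of 50 bases that occurs elsewhere in the genome, with only the model used searched for PRF3. The read length is not given in the sources used here.

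Library totals ran from 16042169 to 18756860 counts, and 3 counts, the floor used here per library, corresponded to 0.126 to 0.229 CPM (counts scaled to library size, and for composition by the TMM method). Labels matched their markers: the stamen identity genes AP3 and PI summed to 1085 to 1140 CPM in stamens, 18.9 to 20.6 CPM in gynoecium and 0 in leaf. The 5 gynoecium and ovule markers summed to 1.06 to 1.97 CPM in stamens, 253.9 to 264.1 CPM in gynoecium and 0 in leaf. The gene counts of libraries of the same tissue differed by more than sampling noise (chi-square per degree of freedom 1.77 to 3.13), so none was treated as a duplicate. Nothing in the labels tells if replicate libraries were made from different plants, so p-values measure the spread between these libraries, which may be technical. In bulk tissue, fewer cells of a type and less RNA per cell cannot be told apart.

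The reproductive-class genes PRF4 and PRF5 were found almost entirely in stamens. PRF4 had 641, 541 and 519 counts in the stamen libraries, 5, 1 and 2 counts in the gynoecium libraries and no count in leaf. On the CPM scale this was 37.1, 31.9 and 32.0 in stamens and 0.210, 0.0454 and 0.0865 in gynoecium. Every stamen library stood far above every gynoecium library, and every gynoecium library above leaf. The level was 33.7 ± 3.003 CPM in stamens against 0.114 ± 0.0855 CPM in gynoecium (SD, n = 3 each). The fitted log2 change was 8.10 (SE 0.21, 95% interval 7.69 to 8.50, edgeR adjusted p = 1.456e-41). The stamen level was 257.8-fold the floor of 3 counts per gynoecium library. This is not a strict lower bound, since gynoecium replicate 1 held 5 of the 8 gynoecium counts. With a replicate left out the log2 change ran from 7.77 to 8.85, the highest being without gynoecium replicate 1. Against the floor in leaf, PRF4 was at least 154-fold higher in stamens (edgeR adjusted p = 7.467e-39).

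PRF5 had 440, 344 and 337 counts in the stamen libraries and none in any gynoecium or leaf library. These counts are 25.5, 20.3 and 20.8 CPM, a mean of 22.2 ± 2.88 CPM (SD, n = 3). The stamen libraries therefore lie wholly apart from the other 6. PRF5 was at least 169.8-fold higher in stamens than in gynoecium (edgeR adjusted p = 1.751e-36) and at least 101-fold higher than in leaf (edgeR adjusted p = 2.328e-33), both bounds resting on 3 counts per library and covering counting error only. With no count in 3 libraries, an exact Poisson upper limit (95%) for the mean level of PRF5 was 0.0535 CPM in gynoecium and 0.0896 CPM in leaf, and the same limit held for PRF4 in leaf.

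**Figure D1:**
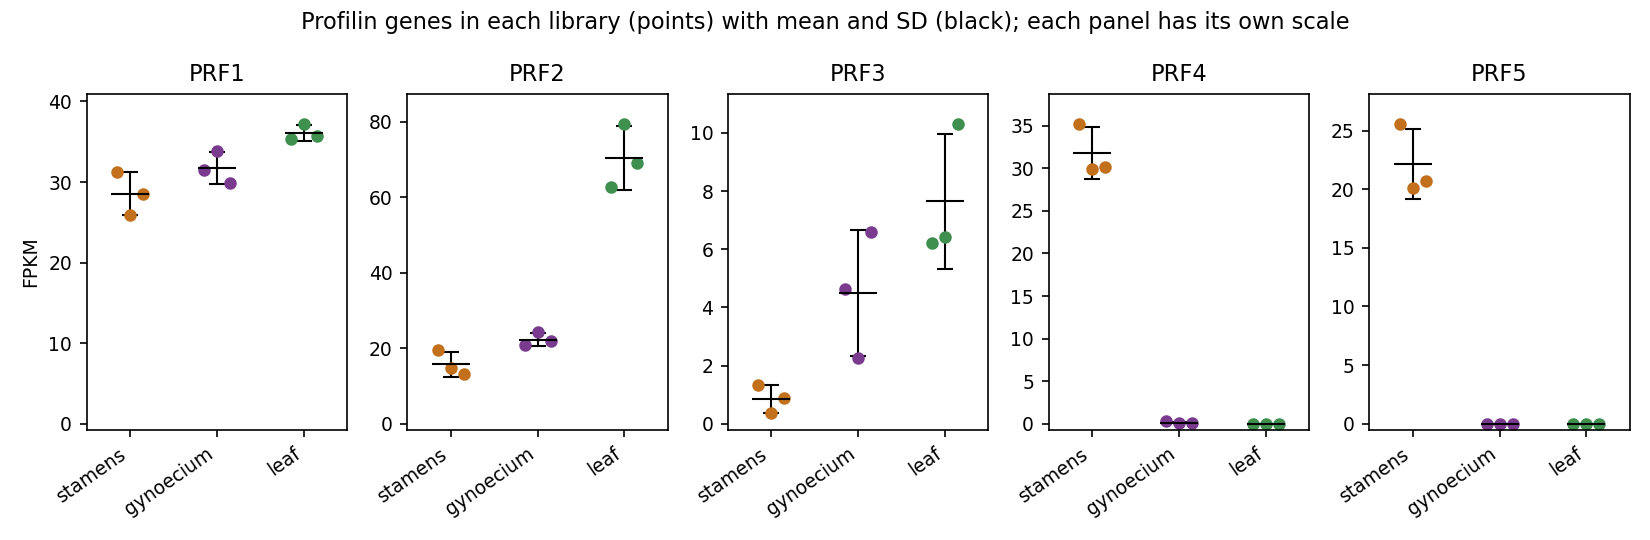
Level of each profilin gene in FPKM (the authors' values, counts scaled by exon length and library total), with 1 point for each library, 3 libraries for each of stamens, gynoecium and leaf, and the mean ± SD in black; each panel has its own linear scale. PRF4 and PRF5 lie at 20.1 to 35.3 FPKM in stamens and at or near 0 elsewhere, PRF2 is highest in leaf, and PRF1 stays between 25.9 and 37.3 FPKM in every library.

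The 8 PRF4 counts in gynoecium make up a level that is 0.338% of that in stamens. The call of PRF4 in gynoecium over leaf (edgeR adjusted p = 0.01482) rests on these counts, and the adjusted p was 0.07437 without gynoecium replicate 1. Both tissues lie at or under the floor on average, so no fold is given. Among genes known from pollen and anther, VGD1 stood in gynoecium at 0.147% and PPME1 at 0.233% of its stamen level, the stamen identity genes AP3 and PI at 3.51% and 1%, and AMS and MS2 of the tapetum at 0.134% and 0.00349%. The other 6 of the 8 pollen markers (ACA9, CNGC18, AHA9, TIP5;1, STP11 and MGH3) had no count in gynoecium, as had MS1 and QRT3. The summed 8 pollen markers ran from 6342 to 6625 CPM in stamens and from 6.16 to 7.04 CPM in gynoecium, and their part in the gynoecium counts of PRF4 was not tested.

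In the stamens the 2 reproductive genes stood in a similar proportion in each library. The log2 ratio of PRF4 to PRF5 counts, with 0.5 added to each, was 0.61 ± 0.06 (SD, n = 3) in stamens, and PRF4 was the higher of the pair in each stamen library, on counts and per length. Per length, PRF4 had 35.3, 29.95 and 30.2 FPKM in the stamen libraries. PRF5 had 25.6, 20.1 and 20.7 FPKM in the same libraries. The highest PRF5 library lies below the lowest PRF4 library. Outside stamens this ratio rests on the added 0.5, and it is not compared.

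Since PRF4 and PRF5 share this pattern, the 250 bases before their annotated starts were searched on both strands for short elements. These were AGAAA (from LAT52) and GTGA (from g10), described in promoters of pollen genes, and TATAAA. In PRF4 the outer 150 bases of this window lie in the neighbouring gene DER1, so its 100 bases between the genes are shown (4:14447238-14447337, plus strand), and for PRF5 all 250 (2:8521276-8521525, minus strand). Both are written 5′ to 3′ in the gene's direction (RefSeq, TAIR10.1), and capitals mark AGAAA or GTGA, or their reverse complements TTTCT and TCAC.
PRF4: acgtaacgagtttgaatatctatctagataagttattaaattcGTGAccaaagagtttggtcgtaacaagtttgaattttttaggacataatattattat
PRF5: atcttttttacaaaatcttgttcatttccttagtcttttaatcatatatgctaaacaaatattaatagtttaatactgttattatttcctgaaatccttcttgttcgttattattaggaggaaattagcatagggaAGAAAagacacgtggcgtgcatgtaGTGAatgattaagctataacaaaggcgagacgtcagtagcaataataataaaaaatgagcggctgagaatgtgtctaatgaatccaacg
PRF4 held 1 match to AGAAA and 2 to GTGA in its whole window, of which 1 match to GTGA lies outside DER1, and PRF5 held 1 of each, with no overlap between matches. These letters are common: AGAAA was present in 82.5% and GTGA in 77.5% of 27443 upstream windows of the same length. In the vegetative class PRF1 held neither, PRF2 held 5 and 1 matches, and PRF3 held 4 and 2. TATAAA, present in 47.4% of windows, was matched in PRF3 alone, and the CArG box of MIKC* factors, present in 2.15% of windows, was matched in none of the 5. The PRF3 model used has 0 untranslated bases, against 522 to 611 in the others, so its window ends where coding begins. That window may not be comparable with those of the other members. Matches are a description of letters in these windows only.

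PRF1, a vegetative-class gene, was expressed in every library and had smaller log2 changes against leaf than PRF2 and PRF3. Its CPM values were 30.4, 25.5 and 27.9 in stamens, 23.3, 24.9 and 22.0 in gynoecium and 40.8, 42.9 and 41.1 in leaf. Leaf stood above both floral organs with no overlap. PRF1 was 1.49-fold lower in stamens than in leaf (log2 change -0.57, SE 0.07, edgeR adjusted p = 7.544e-11) and 1.78-fold lower in gynoecium than in leaf (log2 change -0.83, SE 0.07, edgeR adjusted p = 6.794e-17). With library totals in place of TMM the second of these was smaller, at -0.19 (edgeR adjusted p = 0.0131).

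The comparison of PRF1 between the floral organs depended on the scaling. With TMM factors it was 1.20-fold higher in stamens, at 27.95 ± 2.45 CPM against 23.4 ± 1.48 CPM in gynoecium (log2 change 0.26, SE 0.07, edgeR adjusted p = 0.000853), with the lowest stamen library just above the highest gynoecium library. With library totals alone it was lower in stamens (log2 change -0.15, edgeR adjusted p = 0.04628), and with upper quartile factors the difference was 0.11 (edgeR adjusted p = 0.1549). The authors' FPKM, which use library totals, averaged 28.6 ± 2.66 in stamens and 31.8 ± 2.005 in gynoecium, and these ranges overlap. The choice of scaling moved the median of all tested loci by -0.37 on the log2 scale between stamens and gynoecium, more than the difference of PRF1. No direction is given for it here.

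PRF2 was the leading profilin of leaf. It had 18.5, 14.2 and 12.6 CPM in stamens, 14.97, 17.4 and 15.7 CPM in gynoecium and 70.5, 89.4 and 77.8 CPM in leaf. Every leaf library exceeded every floral library. PRF2 was 5.24-fold lower in stamens than in leaf (log2 change -2.39, SE 0.12, edgeR adjusted p = 4.672e-11) and 4.95-fold lower in gynoecium than in leaf (log2 change -2.31, SE 0.11, edgeR adjusted p = 3.613e-11). With library totals the gynoecium change was -1.66 (edgeR adjusted p = 5.585e-09).

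Between the floral organs PRF2 did not pass the test, with overlapping libraries (log2 change -0.08, 95% interval -0.35 to 0.19, edgeR adjusted p = 0.5967). With library totals PRF2 was lower in stamens (log2 change -0.49, edgeR adjusted p = 0.005092), outside that interval. The TMM value also turned on single libraries, being -0.24 without stamens replicate 1 (edgeR adjusted p = 0.03473) and 0.03 without stamens replicate 3 (edgeR adjusted p = 0.8007). Stamens replicate 1 was the highest of the 3 stamen libraries for each of the 5 profilin genes. The 3′ end of PRF2 overlaps the convergent gene AT4G29360 over 44 of 918 exon bases (4.79%). Whether counting used strand is not given in the sources used here.

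PRF3 was the lowest of the 3 vegetative-class genes per length (FPKM) in every library. Its counts were 11, 3 and 7 in stamens, 40, 18 and 55 in gynoecium and 46, 51 and 82 in leaf. In CPM it had 0.637, 0.177 and 0.432 in stamens, 0.817 to 2.38 in gynoecium and 3.52 to 5.84 in leaf, so the groups do not overlap. PRF3 was 3.88-fold lower in stamens than in gynoecium (log2 change -1.955, SE 0.41, edgeR adjusted p = 4.94e-05) and 10.3-fold lower in stamens than in leaf (log2 change -3.36, SE 0.37, edgeR adjusted p = 1.378e-10). It was 2.65-fold lower in gynoecium than in leaf (log2 change -1.41, SE 0.27, edgeR adjusted p = 9.936e-06), a call that was lost on log2 FPKM, where the groups overlap (limma adjusted p = 0.05311 with 1 added and 0.1289 with 0.1 added). With library totals this change was -0.76 (edgeR adjusted p = 0.01106). The spread between libraries was wide, with a coefficient of variation of 55.6% in stamens, 48.1% in gynoecium and 30.2% in leaf. The exon length behind its FPKM is 462 bases, against 918 to 1016 in the others, and its annotated models carry little untranslated sequence.

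Of the 5 profilin genes, 3 were called higher and 1 lower in stamens than in gynoecium, at an edgeR adjusted p under 0.05. Of all tested loci 85.3% were called in that comparison, 46.3% higher and 39.0% lower. With library totals it was 2 higher and 3 lower, and 39.8% of all calls were then higher, against 54.3% with TMM. In stamens against leaf 2 were called higher and 3 lower, where 87.9% of loci were called, 50.0% higher and 37.9% lower. In gynoecium against leaf 1 was called higher and 3 lower, where 82.5% were called, 42.6% higher and 40.0% lower. The gene called higher there is PRF4, which rests on 8 gynoecium counts and none in leaf. When only the gynoecium and leaf libraries were fitted, PRF4 was filtered out, and 0 were called higher and 3 lower. With library totals 63.0% of calls were higher in stamens against leaf and 67.3% in gynoecium against leaf, against 56.9% and 51.6% with TMM, and the split among profilin genes was the same as with TMM in these comparisons. Most loci were called everywhere, so the share of profilin genes called is near the background. By size, 92.2% of tested loci had a lower log2 change than PRF4 in stamens against gynoecium, 55.4% a lower one than PRF1 and 7.91% a lower one than PRF3. The 3 comparisons share libraries and are not independent.

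**Figure D2:**
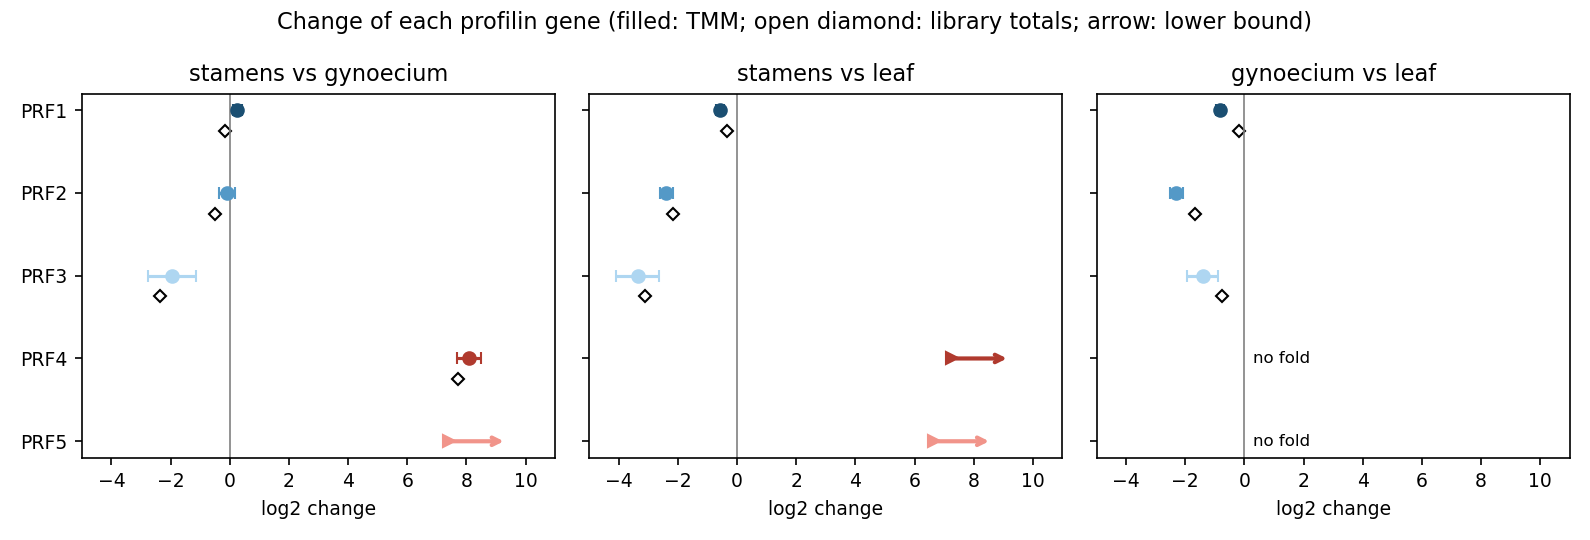
Log2 change of each profilin gene in stamens against gynoecium, stamens against leaf and gynoecium against leaf, with filled points for TMM scaling, bars for approximate 95% intervals, open diamonds for library totals and arrows starting at lower bounds where a group had no count. PRF1 between the floral organs lies on opposite sides of 0 under the 2 scalings (0.26 and -0.15), while PRF2 and PRF3 lie below 0 against leaf under both.

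The make-up of the profilin transcripts, compared per length, differed between the tissues. In stamens the order by mean FPKM was PRF4 (31.8), PRF1 (28.6), PRF5 (22.2), PRF2 (15.8) and PRF3 (0.864), and only the neighbours PRF4 and PRF1 overlapped between libraries. In gynoecium it was PRF1 (31.8), PRF2 (22.3), PRF3 (4.49) and PRF4 (0.143), and in leaf PRF2 (70.4), PRF1 (36.1) and PRF3 (7.65), with no overlap between neighbours in either. Among the tested loci, PRF4 was above 82.7% in stamens, PRF1 above 79.5% in gynoecium and PRF2 above 93.6% in leaf, by mean FPKM.

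PRF4 and PRF5 together gave 53.9%, 54.9% and 54.5% of the summed profilin FPKM in the stamen libraries. In gynoecium they gave 0.459%, 0.0944% and 0.186%, and in leaf 0%. The share was 54.4 ± 0.528% in stamens and 0.247 ± 0.190% in gynoecium (SD, n = 3 each), and the groups did not overlap (exact permutation p = 0.1, two-sided, the smallest that 3 against 3 libraries allow, in each of the 3 comparisons). PRF1 gave 28.9 ± 1.46% of the sum in stamens, 54.1 ± 2.61% in gynoecium and 31.7 ± 1.963% in leaf. PRF2 gave 15.8 ± 1.63% in stamens, 37.9 ± 1.963% in gynoecium and 61.6 ± 2.58% in leaf, so the largest contributor was a different gene in each tissue. These shares are ratios within a library and do not depend on its scaling.

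**Figure D3:**
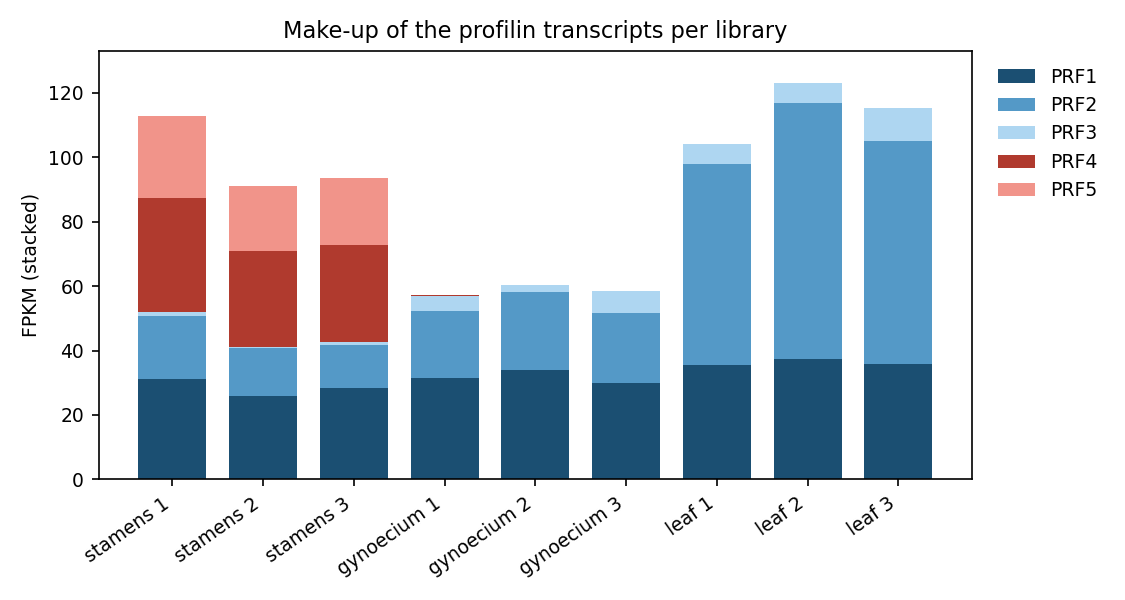
FPKM of the 5 profilin genes stacked in each of the 9 libraries, vegetative class in blue (PRF1 to PRF3) and reproductive class in red (PRF4 and PRF5). Red makes up 53.9% to 54.9% of the stamen bars and at most 0.459% of the gynoecium bars, and PRF2 is the broadest band in leaf.

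Ratios within the vegetative class were compared in the same way, in a family of 12 exact permutation tests that also holds PRF4 to PRF5 and cannot go below p = 0.1 (adjusted p = 0.12, two-sided). The log2 ratio of PRF1 to PRF2 counts was 0.90 ± 0.22 in stamens, 0.55 ± 0.08 in gynoecium and -0.92 ± 0.14 in leaf (SD, n = 3 each). PRF1 thus exceeded PRF2 in every floral library and fell short of it in every leaf library, with no overlap between any tissues (exact permutation p = 0.1 for each difference). The ratio of PRF1 to PRF3 was higher in stamens, at 6.13 ± 0.74, against 3.96 ± 0.86 in gynoecium and 3.29 ± 0.42 in leaf, and the last 2 overlapped (exact permutation p = 0.4). The ratio of PRF2 to PRF3, at 5.23 ± 0.76 in stamens, 3.41 ± 0.86 in gynoecium and 4.22 ± 0.45 in leaf, overlapped between gynoecium and leaf too (exact permutation p = 0.3).

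The profilin sum was then set beside that of the 8 actin genes, whose products profilins bind. Summed profilin FPKM was 112.9, 91.2 and 93.5 in stamens, 57.1, 60.5 and 58.5 in gynoecium and 104.2, 123.2 and 115.2 in leaf. On this scale, which uses library totals, every gynoecium library lay below every stamen and leaf library, and stamens and leaf overlapped. PRF1 to PRF3 alone summed to 45.2 ± 5.97 FPKM in stamens, 58.5 ± 1.78 FPKM in gynoecium and 114.2 ± 9.55 FPKM in leaf, and by this scale the vegetative class by itself was lowest in stamens. With TMM scaling the same sum was 43.5 ± 5.33 CPM in stamens, 41.04 ± 1.84 CPM in gynoecium and 125.1 ± 10.58 CPM in leaf, so the floral organs overlapped and their order was turned. The actins summed to 609.8 ± 7.53 FPKM in stamens, 839.4 ± 10.8 FPKM in gynoecium and 631.4 ± 21.1 FPKM in leaf. Neither the sum of all profilin genes nor that of the actins was computed with TMM scaling. Their order between tissues is therefore given for library totals only.

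The ratio of profilin to actin FPKM was 0.184, 0.148 and 0.155 in the stamen libraries, 0.0677, 0.0731 and 0.0690 in the gynoecium libraries and 0.160, 0.202 and 0.183 in the leaf libraries. Every gynoecium library lay below every other library. The ratio differed by 1.21 on the log2 scale between stamens and gynoecium and by -1.37 between gynoecium and leaf (exact permutation p = 0.1 for each, adjusted p = 0.15 over 3 tests). Between stamens and leaf it differed by -0.16, less than the spread between libraries (exact permutation p = 0.3). The 5 actins of the reproductive class, ACT1, ACT3, ACT4, ACT11 and ACT12, gave 44.4 ± 0.108% of actin FPKM in stamens, 10.54 ± 0.319% in gynoecium and 3.41 ± 0.130% in leaf.

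**Figure D4:**
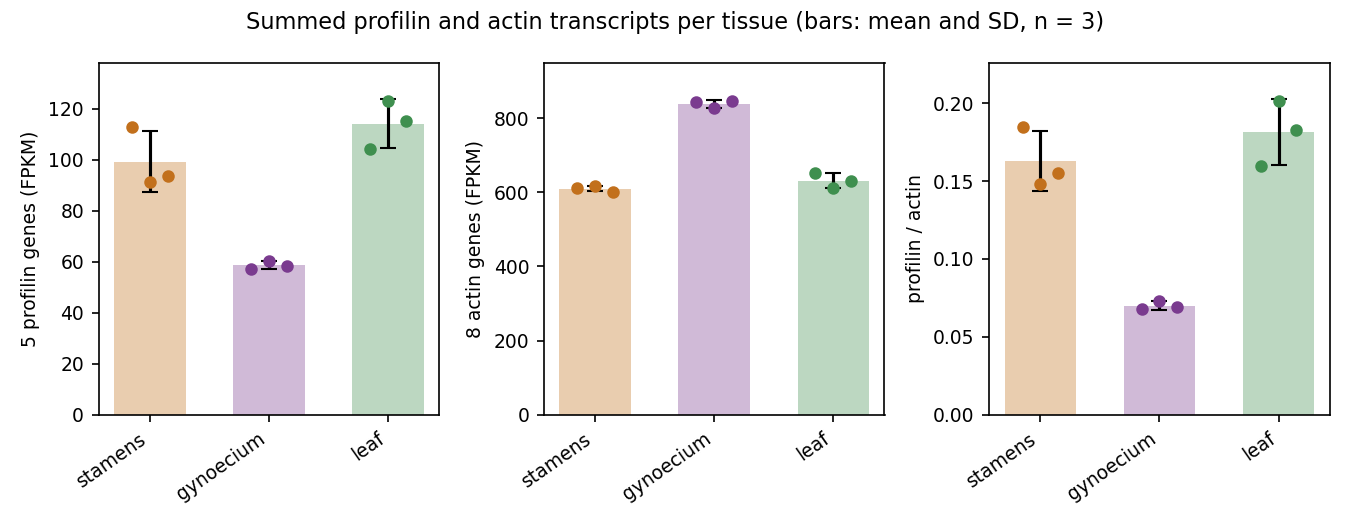
Summed FPKM of the 5 profilin genes, summed FPKM of the 8 actin genes and their ratio, by tissue, with bars for the mean of 3 libraries, error bars for the SD and points for the libraries. The ratio is 0.0677 to 0.0731 in gynoecium and 0.148 to 0.202 in the stamen and leaf libraries, which overlap with each other.

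Genes that work with profilin on actin were counted from lists of 81 loci, of which 78 could be paired by name or by family description. Of these, 69 were tested and 3 had no count in any library. In stamens against gynoecium 42 were higher, 24 lower and 3 not called, with a median log2 change of 0.37 against 0.09 over all tested loci; with library totals 31 were higher and 32 lower. In stamens against leaf 36 were higher, 28 lower and 5 not called (median 0.36, all loci 0.23), and in gynoecium against leaf 32 were higher, 29 lower and 8 not called (median 0.07, all loci 0). With library totals these were 41 higher and 24 lower, and 42 higher and 21 lower. The median of 0 in gynoecium against leaf is also the value that the fit gave loci with no count in either tissue. ADF7 and ADF10 are such loci and are among the 8 not called. Of all tested loci 85.3%, 87.9% and 82.5% were called in these 3 comparisons. By direction this was 46.3% higher and 39.0% lower, then 50.0% and 37.9%, then 42.6% and 40.0%. With library totals 39.8%, 63.0% and 67.3% of all calls were higher, against 54.3%, 56.9% and 51.6% with TMM.

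Among the formins, the filament nucleators that take up profilin-bound actin, 9 of 16 tested were higher in stamens than in gynoecium and 7 lower (6 and 8 with library totals). Of all tested loci 46.3% were higher and 39.0% lower in this comparison, and with library totals 39.8% of all calls were higher. FH3, a pollen formin, had 1534 counts in stamens, none in gynoecium and 475 in leaf, and was at least 232.6-fold higher in stamens than in gynoecium (edgeR adjusted p = 8.366e-42). AT5G48360, a formin-like locus, was at 238.6 ± 2.97 CPM in gynoecium against 12.7 ± 0.296 CPM in leaf, 18.7-fold higher (edgeR adjusted p = 2.703e-58), and 29.3-fold with library totals. Actin depolymerizing factors are a family named for taking filaments apart. Of 8 tested, 4 were higher in stamens than in gynoecium and 3 lower (3 and 4 with library totals). Like PRF5, ADF7 and ADF10 of the pollen class had counts in stamens only (3337 and 4273).

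CAP1, which recycles actin monomers back to profilin, was 1.84-fold higher in stamens than in gynoecium, at 115.1 ± 1.68 CPM against 62.7 ± 0.768 CPM (edgeR adjusted p = 2.636e-28). It was 3.17-fold lower in gynoecium than in leaf (edgeR adjusted p = 1.032e-43), and 2.03-fold lower with library totals. The bundling protein VLN5 was 48.0-fold higher in stamens than in gynoecium (edgeR adjusted p = 7.244e-48), with 6 of 9 tested villins and fimbrins higher and 3 lower under either scaling. Of the 13 myosin XI motors 11 were higher in stamens than in gynoecium and 2 lower (9 and 3 with library totals). XIA, among the higher ones, had 1627 counts in stamens and none in gynoecium. Beside these lists, 46.3% of all tested loci were higher and 39.0% lower in this comparison, and no list was tested as a set. In the ARP2/3 and SCAR list, the branching machinery, 5 of 11 tested were higher and 5 lower (2 and 8 with library totals), and SCAR3 was 3.45-fold lower in stamens, at 25.5 ± 0.870 CPM against 88.1 ± 5.40 CPM in gynoecium (edgeR adjusted p = 1.184e-36).

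**Figure D5:**
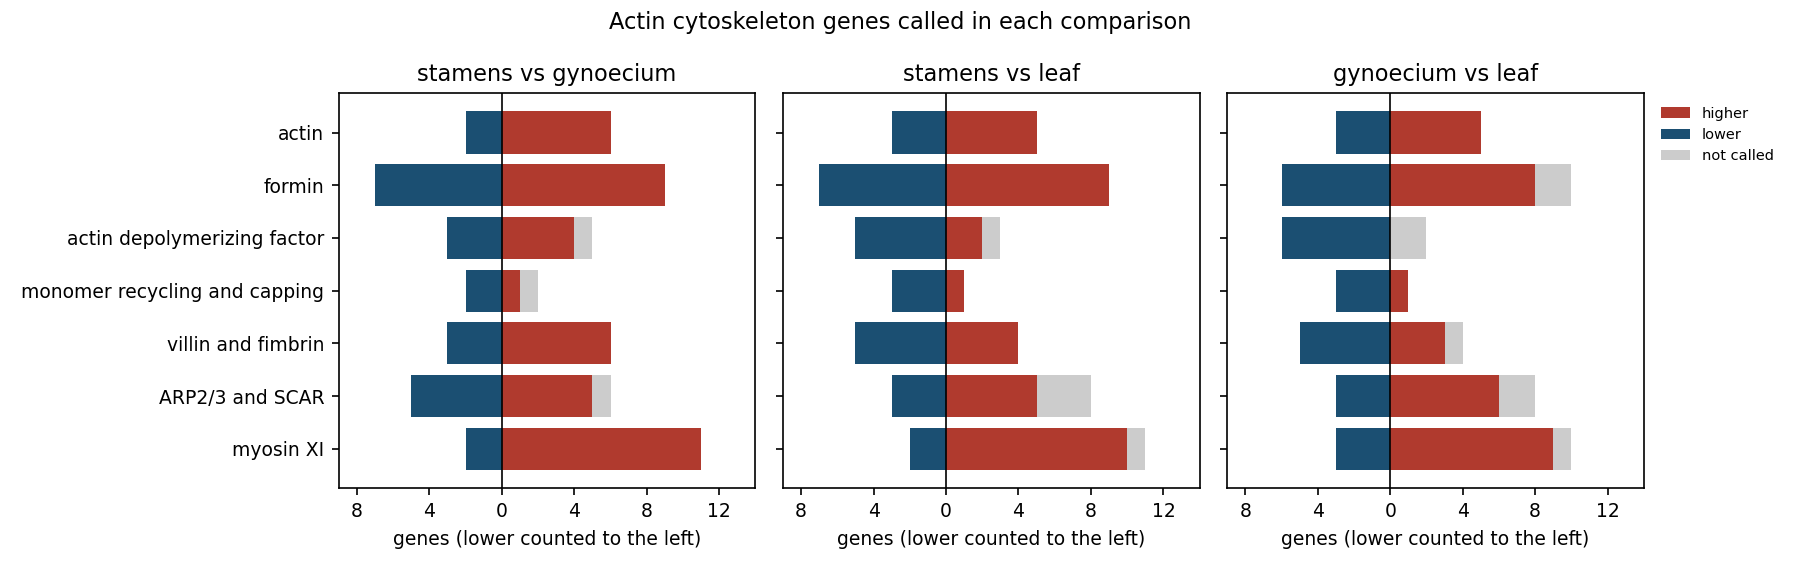
Number of tested actin cytoskeleton genes called higher (right of 0), lower (left of 0) and not called (grey, right of 0) in each list for stamens against gynoecium, stamens against leaf and gynoecium against leaf, with TMM scaling. Myosin XI has 11 higher and 2 lower in stamens against gynoecium, and the actin depolymerizing factors have 0 higher and 6 lower in gynoecium against leaf. Of all tested loci 46.3% were higher and 39.0% lower in stamens against gynoecium, and 42.6% and 40.0% in gynoecium against leaf.

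The tested genes with a symbol whose profiles lay nearest to each member were found by the root mean square difference of log2 CPM, centred on each gene's mean, over the 9 libraries. PRF4 was nearest to NIP4;1, an aquaporin-like channel (0.30), to the actin ACT12 (0.33) and to NF-YB7 (0.35). ACT12 had 46.2 CPM in stamens, 0.0866 CPM in gynoecium and 0 in leaf, a pattern close to that of PRF4. PRF5 was nearest to LBD2 (0.06), UGT72E2 (0.07) and PAP6 (0.07), all with no count outside stamens. PRF5 was the 38th nearest of 20826 loci to PRF4, at 0.46, while PRF4 was the 359th nearest to PRF5. The log2 CPM used here holds a prior count of 2, which sets the value of a gene where it has no count. Among genes with no count outside stamens, nearness to PRF5 is therefore set by the stamen level. The distances of PRF4 to ACT12 and to PRF5 rest in part on few gynoecium counts, 8 for PRF4 and 6 for ACT12.

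For PRF1 the nearest were CPUORF47 (0.06), the mitochondrial porin gene VDAC4 (0.06) and SAP5 (0.08). PRF2 was nearest to the thioredoxin TRX3 (0.12), which stood at 71.7 CPM in stamens, 75.5 CPM in gynoecium and 393.8 CPM in leaf, to AGL16 (0.14) and to DBE1 (0.14). PRF3, with its few counts, had no near neighbour: AGL42 (0.42), TK1a (0.43) and ABCG24 (0.43) were the closest with a symbol. Within a difference of 0.25 there were 1130 loci around PRF1, 123 around PRF2, none around PRF3, 1 around PRF4 and 189 around PRF5, so profiles like that of PRF1 were the most common. These distances describe likeness over 9 libraries only, in which all genes share the depth and scaling of each library.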

How the data were processed

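Total RNA extracted with Trizol was sequenced from 9 libraries, 3 each of stamens, gynoecium and leaf. The deposited counts are whole-number counts per locus made by the authors, and the deposited FPKM values are the authors' counts divided by library total and by a length that equals the merged exon length of TAIR10.1 within 0.5 base at 99.4% of 24180 matched loci and at all 5 members. Per the submitters' processing notes, HTSeq 0.6.0, HISAT2 2.1.0, Bowtie2 2.2.3 and TopHat2 were used with the TAIR10 build; their roles, the strand setting, read length and filters are not given in the sources used here.

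Counts were fitted with edgeR 4.0.16 in R 4.3.3 (filterByExpr by group, scaling by TMM, with factors of 0.955 to 0.966 for stamens, 1.27 to 1.28 for gynoecium and 0.815 to 0.817 for leaf, robust quasi-likelihood F test, 1 mean per tissue, all 9 libraries). P-values were adjusted by Benjamini-Hochberg over 20827 loci and called under 0.05, and the common biological coefficient of variation was 3.62%. SE is the absolute log2 change divided by the root of F, and intervals are 1.96 SE on either side. Shares, sums and ratios use FPKM or counts per library, with exact two-sided permutation tests. Where a tissue had no count, its level was set to 3 counts in each library, which gives a lower bound of the fold. The same was done for PRF4 in gynoecium, which averaged under the floor, but there the fold is not a strict bound. Sequences, coordinates and names are from RefSeq TAIR10.1, matched by locus (the sequence of 1 exon is not reported here), in Python 3.11.15 with Biopython 1.88. Named partner genes are, per list and comparison, the called genes with the largest rise and fall that do not overlap and reach 5 CPM, and the uncalled gene of highest level, and the text gives a selection; ADF7 was added after its values were seen. The members and lists were chosen with earlier results of these data known. Alternatives were DESeq2 1.42.0, DESeq2 size factors, upper quartile factors, library totals, limma-voom (limma 3.58.1), limma on log2 FPKM plus 1 or 0.1, other filters, no organelle genes, a replicate block, only the libraries of a comparison, counts in place of FPKM, an added count of 2 in ratios, and each replicate left out.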

Additional observations from a re-analysis of the deposited data

How the results depend on the processing

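Over the 14 log2 changes of profilin genes and their 293 alternative values, 280 kept their direction and side of the threshold. The exceptions, in stamens against gynoecium, were PRF1 (log2 change 0.26), at 0.11 with upper quartile factors, -0.15 with library totals, -0.15 on log2 FPKM plus 1 and -0.155 on log2 FPKM plus 0.1, and PRF2 (-0.08), at -0.49 with library totals, -0.49 on log2 FPKM plus 1 and -0.51 on log2 FPKM plus 0.1; leaving out a replicate gave -0.24 to 0.034 for PRF2. Library totals moved the median of all tested loci by -0.37, 0.23 and 0.55 in stamens against gynoecium, stamens against leaf and gynoecium against leaf, by their construction. In gynoecium against leaf, PRF3 (-1.41) was at -0.71 on log2 FPKM plus 1 and -0.84 on log2 FPKM plus 0.1. PRF4 was at 0.19 on log2 FPKM plus 1 and 3.33 to 4.43 with a replicate left out. The count of profilin genes called there was 2 on log2 FPKM plus 1 in place of 4, and the cause was not tested. With limma-voom it was 5, since PRF5 was called lower (log2 change -0.75, limma adjusted p = 0.0002682) though it had no count in either tissue. This change of PRF5 is not among the 14 log2 changes. With library totals the split of calls in stamens against gynoecium turned, from 3 higher and 1 lower to 2 and 3 for the profilin genes and from 42 and 24 to 31 and 32 for the actin lists. Shares and ratios rest on exact tests of 3 against 3 libraries, which cannot pass the threshold, so their alternatives say nothing of stability. PRF4 was filtered out of gynoecium against leaf when only the gynoecium and leaf libraries were fitted. With the replicate number as a block, 4, 5 and 4 profilin genes were called in these comparisons, as without it, and PRF1 in stamens against gynoecium was at 0.26 and PRF2 at -0.08. Correlations of same-numbered libraries were -0.05 to 0.05 over 9 pairs. No pairing by number was seen in them, but they cannot show whether same-numbered libraries share plants or a batch. Depth limits PRF3 in stamens (21 counts) and PRF4 in gynoecium (8 counts).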

Other observations

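The genes beside the profilin genes had levels of their own. AT4G29360, whose 3′ end overlaps that of PRF2 on the other strand and which is annotated as a glycosyl hydrolase of family 17, was at 8.30 ± 0.833 CPM in stamens, 103.1 ± 1.91 CPM in gynoecium and 1.85 ± 0.187 CPM in leaf (SD, n = 3 each), while PRF2 was highest in leaf. AT5G56590, a gene of the same hydrolase family next to PRF3, was at 8.22 ± 0.999 CPM in stamens, 58.1 ± 2.88 CPM in gynoecium and 16.4 ± 0.713 CPM in leaf. DER1, which ends 100 bases before the start of PRF4, was at 86.1 ± 2.75 CPM in stamens, 64.0 ± 2.32 CPM in gynoecium and 46.4 ± 3.24 CPM in leaf, and AT2G19780 next to PRF5 was at 3.98 ± 0.271 CPM in stamens, 11.8 ± 1.03 CPM in gynoecium and 10.7 ± 1.77 CPM in leaf. Neither of these neighbours of PRF4 and PRF5 was at 0 outside stamens.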
